A study of Mus musculus with 3 samples.

Results

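The cytosolic ribosome is built from ribosomal RNA and the ribosomal proteins described here, 66 genes of the 22087 named on the array. They were chosen by a rule on symbols, with earlier results of these data known. Every gene with a probe set annotated to 1 symbol of the Rpl, Rps, Rplp or Rpsa series was taken, without pseudogene names. Each gene is represented by its probe set with the highest mean, out of 101 probe sets in all. The samples were 3 preparations of stroma cells, titled Dicer1 +/- Stroma, from mouse tumours, which the series title calls ASD+/- without spelling out the abbreviation. Dicer1 encodes the nuclease that cuts microRNA precursors. The cells were sorted as live, PECAM1-negative and Tomato-negative, PECAM1 being a surface protein of endothelium and some leukocytes and tdTomato a red fluorescent protein carried by the cells that were collected separately as tumour cells. Each sample was read on 1 Affymetrix array, and values are log2 intensities as deposited. Pecam1 itself was detected at 8.02, 7.20 and 8.25 in samples 1 to 3, and all 12 fibroblast markers measured were detected on every array. All 3 samples form 1 group, stroma of the ASD+/+ tumours was not analysed here, and no p-value could be computed. The labels do not say whether the samples came from separate animals. The sex-linked transcripts given further on set sample 1 apart from samples 2 and 3, so sample 1 is not a technical repeat of either, while for samples 2 and 3 the spread may be technical.

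The mature cytosolic ribosome has a small subunit, which reads the messenger RNA, and a large subunit, which joins amino acids. On the large subunit a stalk of acidic P proteins recruits the elongation factors. The messengers of ribosomal proteins are abundant in dividing cells, begin with a run of pyrimidines called the 5′ terminal oligopyrimidine (TOP) tract, and are translated together under the control of mTORC1 and Larp1. A few genes have divergent paralogs with restricted expression, such as Rpl3l of striated muscle and Rpl10l and Rpl39l of the testis.

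The start-site regions below are shown because the TOP tract is the sequence feature that ribosomal protein genes are known to share. Promoters of 300 bases, with 250 before and 50 after the annotated start, were found for 52 of the 66 genes in the RefSeq table of build GRCm38.p6. A tract, searched on the gene's strand as a C at the annotated start followed only by C or T, for at least 5 bases in all, was present in 11 of the 52 genes (21.2%), against 467 of 17492 protein-coding genes (2.67%) and 813 of all 27025 genes with a promoter (3.01%). The genes whose tract had 8 or more bases are printed from 30 bases before to 20 bases from the start, with the tract in capitals.
Rps6: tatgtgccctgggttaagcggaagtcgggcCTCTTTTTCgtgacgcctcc
Rps10: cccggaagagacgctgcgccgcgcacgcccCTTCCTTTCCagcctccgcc
Rps18: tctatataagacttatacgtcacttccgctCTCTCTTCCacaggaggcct
Rpl15: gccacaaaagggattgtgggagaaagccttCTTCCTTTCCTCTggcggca
Rpl28: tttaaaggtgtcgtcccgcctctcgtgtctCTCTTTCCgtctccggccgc
Rpl35: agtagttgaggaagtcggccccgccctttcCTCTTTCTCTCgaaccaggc
Rpl38: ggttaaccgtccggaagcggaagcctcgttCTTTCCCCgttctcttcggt
Rpl32l: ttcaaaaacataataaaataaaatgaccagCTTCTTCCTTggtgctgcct
The regions of Rps6 (chr4:86857348-86857397), Rps10 (chr17:27635225-27635274), Rps18 (chr17:33955646-33955695), Rpl15 (chr14:18270967-18271016) and Rpl35 (chr2:39005112-39005161) lie on the minus strand. Those of Rpl28 (chr7:4792935-4792984), Rpl38 (chr11:114668550-114668599) and Rpl32l (chr10:20208409-20208458) lie on the plus strand. When the window was widened to between 20 bases before and 50 bases from the start and a C followed only by C or T for at least 8 bases was sought anywhere in it, 39 of 52 genes held a tract (75%), against 23.3% of protein-coding genes and 22.7% of all genes.

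The letters CCGGAAG, an extended form of the core bound by ETS factors, were searched on both strands of the whole promoter and may share letters with a tract. They were found in 23 of 52 genes (44.2%), against 12.9% of protein-coding genes and 9.93% of all genes. TATAAA, searched in the same way, was found in 6 genes (11.5%), against 14.8% of protein-coding genes and 15.7% of all genes. A match describes letters in this window and not a site that is used, and annotated starts can differ from the starts used in these cells.

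Most ribosomal protein genes were detected. Receptors for smell, pheromones and taste, with 1438 probe sets, served as a background reference, and a gene was called detected where it exceeded their 95th percentile, which was 5.16, 5.11 and 5.20 for samples 1 to 3. On all 3 arrays 58 of the 66 genes were detected (87.9%), where 60.5% of named genes outside the receptors passed. By subunit these were 22 of 23 small subunit genes, 29 of 31 large subunit genes, 2 of 3 stalk genes and 5 of 9 paralogs. Another 4 genes passed on 1 or 2 arrays and 4 on none, so that 62 genes entered the comparison of samples.

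**Figure D1:**
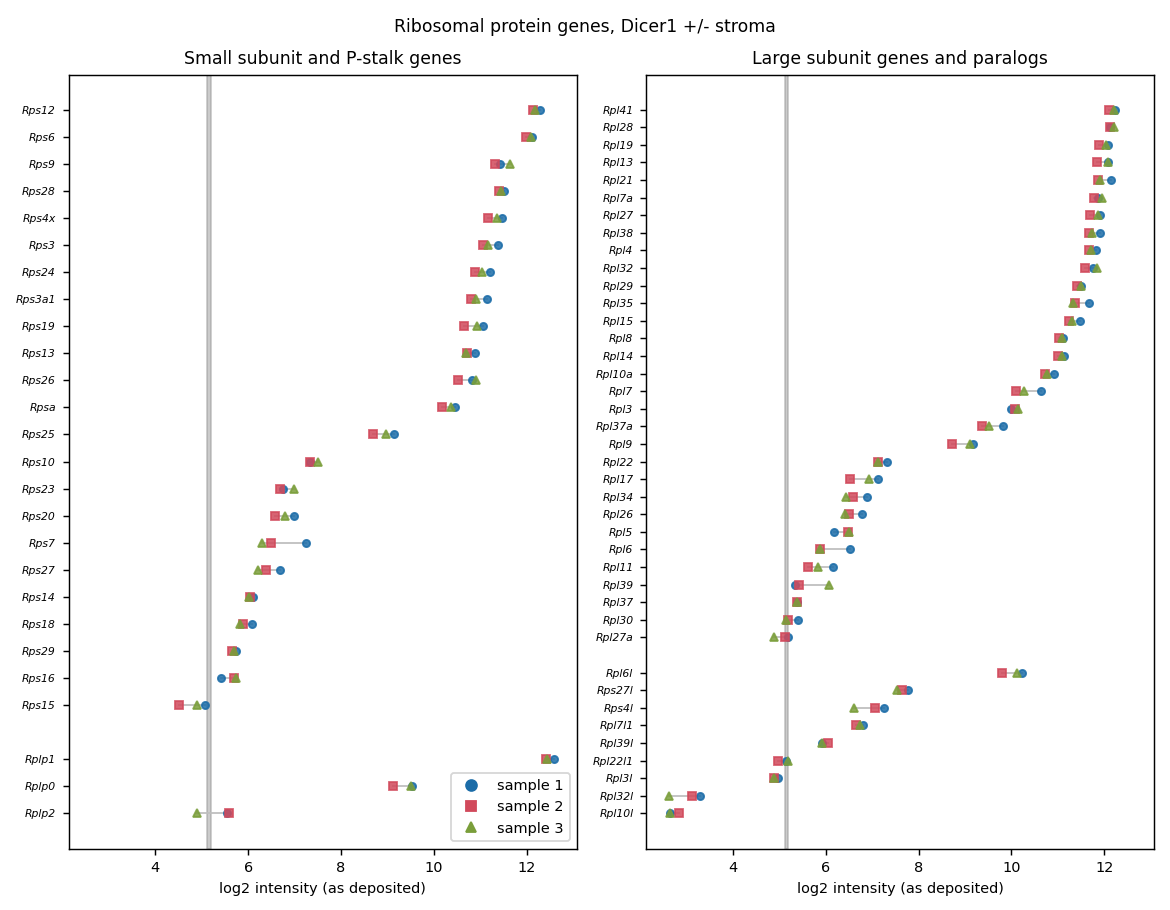
Log2 intensity of the 66 ribosomal protein genes in samples 1, 2 and 3 (points, joined by a line), by gene within subunit class; the grey band spans the background reference of the 3 arrays, 5.11 to 5.20. The kept probe sets fall into bright ones with means above 9 (34 genes) and dim ones with means under 7 (27 genes), with 5 genes between.

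The kept probe sets were either very bright or dim. Of the 66 genes 34 had a mean above 9, 27 a mean under 7 and 5 a mean between. In samples 1 to 3, 27, 23 and 26 of the genes exceeded the 99th percentile of their array. The brightest, Rplp1, was at 12.58 in sample 1, 0.60 below the highest value of that array, and saturation was not tested. Probe sets differ in brightness for a given amount of RNA, so these levels do not rank the genes.

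Probe sets of the same gene often differed widely in brightness. For 21 genes more than 1 probe set carried the symbol, and their means lay a median of 4.65 apart on the log2 scale. In 13 of them the gap exceeded 4. Rps3a1 had probe sets with means of 10.94 and 3.79, the widest gap, and Rpl35 had 3 with means of 11.46, 8.94 and 4.34. Rps12 had 8 probe sets, of which 6 held the same values on all arrays, and Rps19 had 2 such. Ribosomal protein genes have many near-identical processed pseudogenes, and whether the probe sets also read these was not tested.

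**Figure D2:**
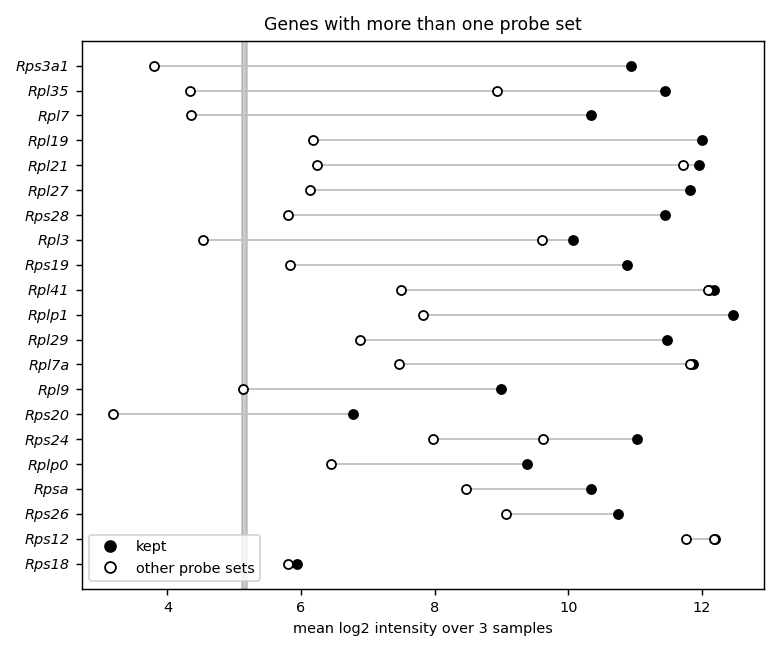
Mean log2 intensity over the 3 samples of each distinct probe set of the 21 genes with more than 1; filled points are the kept probe sets, open points the others, and the grey band is the background reference, 5.11 to 5.20. Gaps within a gene reach 7.15 for Rps3a1 and exceed 4 in 13 genes.

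The samples differed little in ribosomal protein genes, and in a shared direction. None of the 62 detected genes had a range over the 3 samples above 1 (2-fold), where 5.70% of all 13636 genes detected on at least 1 array did, and 8 had a range above 0.5 (26.8% of all genes). Their median SD was 0.15, against 0.16 over all detected genes. Sample 1 held the single highest value in 47 of the 62 genes (75.8%), where 28.8% of all genes were highest in sample 1. Sample 2 held the lowest in 40 (64.5%), where 29.4% of all genes were lowest in sample 2. Sample 2 was the highest for only 2 of the 62, Rplp2 and Rpl39l.

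The median over genes of the value minus the gene's own mean was 0.12 in sample 1, -0.086 in sample 2 and 0.0025 in sample 3, against -0.0070, 0.0000 and -0.0006 over all detected genes. Taken pair by pair, sample 1 exceeded sample 2 by a median of 0.19 (1.14-fold), with 54 of 62 genes higher in sample 1, where 44.5% of all genes were. Sample 1 exceeded sample 3 by 0.10 (1.07-fold), with 48 of 62 higher (48.5% of all genes), and sample 3 exceeded sample 2 by 0.078 (1.06-fold), with 45 of 62 higher (47.6% of all genes). The deviation of sample 1 was 0.0505 without sample 2, and that of sample 2 was -0.0407 without sample 1. Sample 3 changed sides when sample 2 was left out, with a median deviation of -0.0505. With 2 samples left, the deviations of a gene are equal and opposite, so these values are not separate from the pairwise differences. Genes of 1 sample share its array and are not independent of each other.

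**Figure D3:**
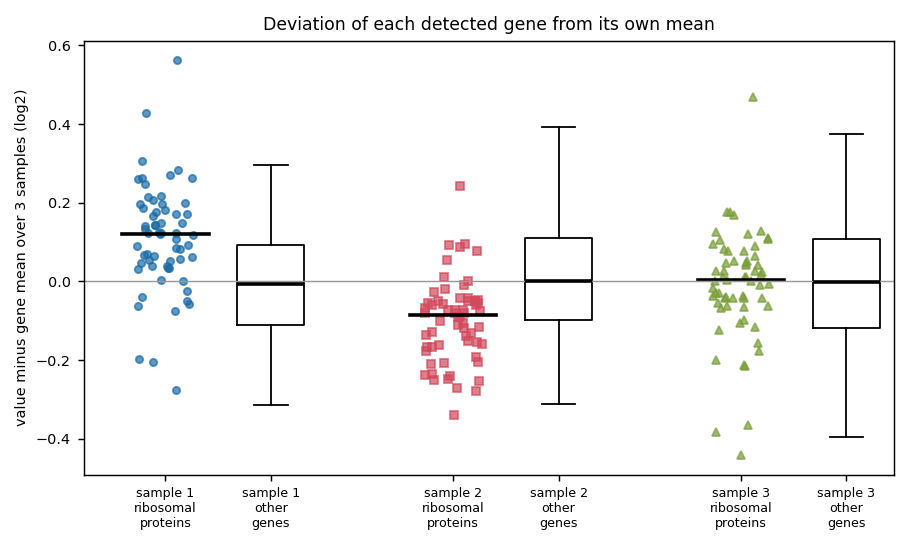
Each detected gene's log2 value minus its own mean over the 3 samples, for the 62 ribosomal protein genes (points, with the median as a bar) and for all other detected genes (box from quartile to quartile with the median, whiskers from the 5th to the 95th percentile). The bar lies at 0.12 in sample 1 and at -0.086 in sample 2, while the boxes of other genes are centred near 0.

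Among the bright probe sets the order of the samples was more uniform. Of the 34 genes with a mean above 9, a level chosen after the values were seen, 28 had their highest value in sample 1 and 31 their lowest in sample 2, where 31.2% and 33.7% of all 1433 genes above that level were. The full order of sample 1 above sample 3 above sample 2 held in 26 of the 34 (76.5%), against 17.3% of genes above that level, and in 33 of all 62 (53.2%), against 13.7% of all detected genes. Of the 28 dimmer genes 19 peaked in sample 1, where 28.6% of all detected genes with a mean of 9 or below did. Sample 2 was lowest in 9 of the 28 (32.1%), near the 28.8% of all such genes. Sample 3 was lowest in 13 (46.4%), against 33.2%. A raised count of genes lowest in sample 2 was thus seen in the bright probe sets only. The dimmer genes still had median deviations of -0.054 in sample 2 and -0.037 in sample 3, against 0.0010 and -0.0013 over all such genes. Their sample 1 exceeded sample 2 by a median of 0.17, against 0.21 for the bright genes. The median SD was 0.12 for the bright genes and 0.17 for the dimmer ones.

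In the small subunit, 17 of 22 detected genes peaked in sample 1 and 15 had their lowest value in sample 2. The shares over all detected genes were 28.8% and 29.4%. Sample 1 exceeded sample 2 by a median of 0.24 in this subunit. Rps6, the substrate of S6 kinase downstream of mTORC1, was at 12.11, 11.98 and 12.08 in samples 1 to 3 (12.06 ± 0.070, SD, n = 3). Rps3, which lies where the messenger enters the subunit, was at 11.38, 11.05 and 11.17, and Rpsa, also known as the laminin receptor precursor, at 10.46, 10.17 and 10.38. For all 3 genes sample 1 was on top and sample 2 at the bottom. Rps19, the gene most often mutated in human Diamond-Blackfan anaemia, was at 11.07, 10.64 and 10.93 (10.88 ± 0.22, SD, n = 3), with the same order.

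Other bright genes of this subunit followed suit. Rps12 was at 12.28, 12.12 and 12.19, Rps24 at 11.20, 10.87 and 11.03, and Rps3a1 at 11.14, 10.79 and 10.90. Rps28 had the narrowest range of the bright ones, 0.11, and Rps26, at the exit channel of the messenger, one of the wider, 0.41, with 10.81, 10.51 and 10.92. Rps26 and Rps9 (11.42, 11.32 and 11.64) were highest in sample 3 instead, and Rps13 (10.89, 10.72 and 10.70) was lowest in sample 3.

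Rps7, which binds the p53 regulator Mdm2, had the largest range of all 62 genes. Its values were 7.24, 6.50 and 6.29 (6.68 ± 0.50, SD, n = 3), a span of 1.93-fold with sample 1 apart from the others. Rps27, a zinc finger protein, was at 6.69, 6.38 and 6.22. Rps14, lost from 1 chromosome in the human 5q- syndrome, and Rps29 varied least among the dim genes of this subunit, with 6.11, 6.04 and 6.02 for Rps14 and 5.74, 5.66 and 5.70 for Rps29. Rps16 went the other way from most, with its lowest value in sample 1 (5.42, 5.70 and 5.75). Rps15 was below the background reference on every array, at 5.06, 4.51 and 4.91. A probe set below this level does not show that its gene was silent.

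In the large subunit, 24 of 31 detected genes peaked in sample 1 and 20 had their lowest value in sample 2. The shares over all detected genes were 28.8% and 29.4%. Sample 1 exceeded sample 2 by a median of 0.20 in this subunit. Rpl4, whose protein lines the exit tunnel, was at 11.83, 11.66 and 11.72, and Rpl38, needed in the mouse for translation of Hox messengers, at 11.91, 11.67 and 11.73. Rpl13 was at 12.09, 11.83 and 12.08 and Rpl21 at 12.14, 11.85 and 11.90. Sample 1 gave the top value and sample 2 the bottom value for each of these.

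The least variable of the large subunit genes were Rpl28 (12.13, 12.13 and 12.21), Rpl29 (11.50, 11.42 and 11.50) and Rpl8 (11.12, 11.03 and 11.09), with ranges of 0.078, 0.085 and 0.087. Rpl37 had the same value, 5.37, on all 3 arrays, and its SD of 0.00 does not measure a spread. Rpl3, which reaches towards the peptidyl transferase centre, was lowest in sample 1 on its kept probe set, at 10.00, 10.09 and 10.14. A second detected probe set, at 9.78, 9.02 and 10.03, was lowest in sample 2. Rpl5 and Rpl11, which carry 5S ribosomal RNA into the ribosome and bind Mdm2 when assembly fails, differed in the place of sample 1. Rpl5 was lowest in sample 1 (6.19, 6.47 and 6.49) and Rpl11 highest there (6.15, 5.62 and 5.83). The other samples kept the same order in both genes. Each gene rests on 1 dim probe set, and Rpl5 had a range above 1 with probe sets of several symbols included.

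The widest ranges in this subunit belonged mostly to dim probe sets. Rpl39, a small protein of the exit tunnel encoded on the X chromosome, was at 5.34, 5.42 and 6.08 (5.61 ± 0.41, SD, n = 3) and thus highest in sample 3. Rpl6 was at 6.52, 5.88 and 5.87 (6.09 ± 0.37, SD, n = 3), Rpl17, near the tunnel exit, at 7.13, 6.52 and 6.94 (6.86 ± 0.31, SD, n = 3), and both were highest in sample 1. The bright genes Rpl7 (10.64, 10.09 and 10.27) and Rpl37a (9.82, 9.36 and 9.51) had ranges of 0.55 and 0.47, again with sample 1 highest and sample 2 lowest. Rpl30 (5.39, 5.20 and 5.15) and Rpl27a (5.20, 5.13 and 4.90) fell below the background reference in sample 3.

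Of the X-linked genes, Rps4x showed the common order (11.48, 11.17 and 11.36) and Rpl39 did not. Xist, which coats the inactive X, had values of 9.78, 3.43 and 3.49, and the Y-linked Eif2s3y had 3.86, 8.51 and 8.71. Sample 1, the high sample for ribosomal proteins, thus differed from the others in sex-linked transcripts too, and the part of this in the result was not tested.

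In the P stalk, Rplp0 and Rplp1 had the order sample 1 above sample 3 above sample 2, and Rplp2 did not. Rplp0, which anchors the stalk to the ribosome, was at 9.53, 9.11 and 9.51 (9.38 ± 0.24, SD, n = 3), with sample 3 close to sample 1. Rplp1 was at 12.58, 12.41 and 12.43 (12.47 ± 0.094, SD, n = 3), with sample 3 close to sample 2. Rplp2, its partner in the stalk dimer, was at 5.54, 5.58 and 4.90 and not detected in sample 3. The second probe set of Rplp0, at 6.30, 6.65 and 6.41, was highest where the first was lowest. Of the 18 genes with at least 2 distinct detected probe sets, all detected probe sets named the same highest sample in 13, and Rplp0, Rpl27, Rps18, Rps19 and Rpsa were the exceptions.

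Among the 9 paralogs, 4 of the 6 detected were highest in sample 1, against 28.8% of all detected genes. Rps27l, a p53 target in human cells, was at 7.78, 7.65 and 7.54 (7.66 ± 0.12, SD, n = 3), and Rpl7l1 at 6.80, 6.66 and 6.75 (6.73 ± 0.068, SD, n = 3). Rps4l was at 7.25, 7.07 and 6.61 and Rpl6l, which like Rps4l is listed as a pseudogene in RefSeq, at 10.22, 9.79 and 10.13. The tissue-restricted paralogs lay near or below background: Rpl3l, at 4.96, 4.89 and 4.89, and Rpl10l, at 2.64, 2.84 and 2.64, were detected on no array, whereas Rpl39l was detected at 5.91, 6.06 and 5.92. Rpl22l1, the counterpart of the lymphocyte regulator Rpl22, passed only on array 3 by a narrow margin (5.14, 4.98 and 5.20), while Rpl22 was detected throughout at 7.32, 7.13 and 7.13. Rpl32l was not detected (3.29, 3.13 and 2.63).

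The change between samples was also compared within 6 pairs of paralog and counterpart. The difference of paralog minus counterpart moved over the samples by 0.21 for Rpl3l and Rpl3, 0.23 for Rps27l and Rps27, 0.25 for Rpl22l1 and Rpl22 and 0.41 for Rpl7l1 and Rpl7. It moved most, by 0.80, for Rpl39l and Rpl39, at 0.58, 0.64 and -0.16 in samples 1 to 3, and by 0.65 for Rps4l and Rps4x. The offset itself carries no meaning between probe sets, and for Rpl3l and Rpl22l1 the change rests on a value at background.

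Genes with and without the tract at the annotated start are given side by side, and their difference was not tested. The 10 detected genes with a tract had median deviations of 0.14, -0.069 and -0.036 in samples 1 to 3, and the 38 without had 0.12, -0.12 and 0.0066. Sample 1 was highest in 7 of the 10 and in 28 of the 38, against 28.8% of all detected genes. Among genes with CCGGAAG in the promoter 17 of 23 peaked in sample 1 and sample 2 held the lowest value of 10. Among those without it the counts were 18 and 20 of 25. The share of all detected genes lowest in sample 2 was 29.4%.

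Other genes of translation were set beside these. Among factors of ribosome assembly and the nucleolus, 31 of 31 measured were detected and none had a range above 1, with median deviations of 0.12, -0.049 and -0.055 in samples 1 to 3. Npm1, a nucleolar chaperone, was at 11.35, 11.05 and 11.10, Nop56, a core protein of box C/D small nucleolar particles, at 9.35, 8.86 and 9.18, and Gnl3, a nucleolar GTPase, at 8.95, 8.72 and 8.17, whereas Ncl, nucleolin, was level at 10.44, 10.44 and 10.48. All 25 initiation factors measured were detected, 14 of them with their highest value in sample 1. So were all 9 genes listed with the elongation factors, 5 of them highest there. This list also holds Eef1e1, Tpt1 and Eef2k, which are not themselves elongation factors, and Eef1e1 and Tpt1 are among those highest in sample 1. Of all detected genes 28.8% were highest in sample 1. Eef1b2, which reloads the elongation factor with GTP, was at 11.21, 11.08 and 11.16, and Eif3m, an initiation factor subunit, at 8.89, 8.28 and 8.65.

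Host genes of small nucleolar RNAs, which also begin with TOP tracts, had median deviations of 0.11, -0.13 and -0.022 over 6 measured genes. Snhg1 was at 9.90, 9.54 and 9.73, Snhg6 at 10.66, 10.21 and 10.35, and Zfas1 at 9.95, 9.55 and 9.95. Fau, whose product is cleaved to a small subunit protein and which the symbol rule does not cover, was at 11.92, 11.76 and 11.96. Sample 2 was the lowest for each of these 4 genes and for Snhg12, whereas Snhg3 (8.20, 8.16 and 7.99) and Snhg5 (9.83, 9.75 and 9.60) were lowest in sample 3.

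Genes of mTORC1 and its control of TOP messengers did not share the order, with 1 of 12 highest in sample 1 and 7 lowest there. Of all detected genes 28.8% were highest and 31.2% lowest in sample 1, and 33.3% were lowest in sample 3. Mtor was at 7.70, 7.66 and 7.70 and Larp1, which binds the TOP tract, at 8.79, 8.77 and 8.98. Myc, a transcription factor that drives ribosome production, was at 9.06, 8.76 and 8.83, its antagonist Mxd1 at 9.45, 10.10 and 10.45, and Mxd4, of the same family of antagonists, at 8.47, 8.43 and 8.26. Of the 6 detected genes of the Myc family 3 peaked in sample 1 and 3 had their lowest value there, with median deviations of 0.0046, 0.031 and -0.016. Of 5 measured chaperones of ribosomal proteins 4 peaked in sample 1 and 4 had their lowest value in sample 3, among them Tsr2, which delivers Rps26, at 7.07, 6.91 and 6.11. Genes of ribosome rescue were divided, with 5 of 9 highest in sample 1, among them Nemf (8.70, 7.99 and 8.05), and the other 4 lowest in sample 1, among them Pelo (7.28, 7.63 and 7.60).

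The mitochondrial ribosome, a separate machine, gave 41 of 70 detected protein genes highest in sample 1, 21 lowest in sample 2 and 36 lowest in sample 3. Their median deviations were 0.092, -0.0092 and -0.068. Of all detected genes 28.8% were highest in sample 1, 29.4% lowest in sample 2 and 33.3% lowest in sample 3. The count for sample 2, 21 of 70 mitochondrial genes, was near the share of all genes, and that of cytosolic genes was 40 of 62. This difference was not tested.

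**Figure D4:**
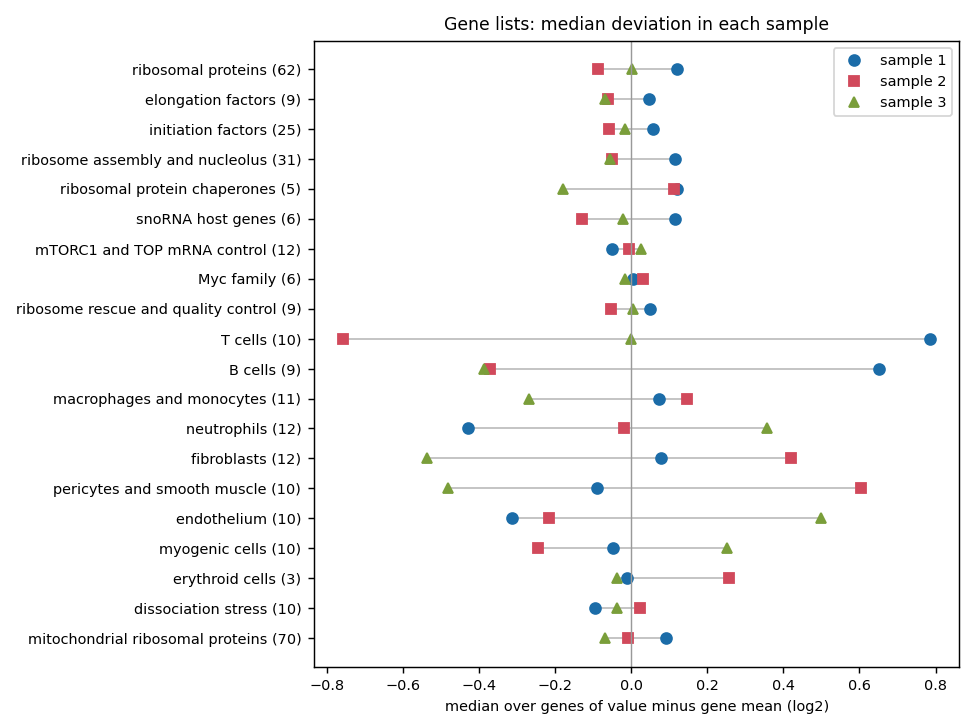
Median over detected genes (number in brackets) of the log2 value minus the gene mean, in samples 1, 2 and 3, for ribosomal proteins, other translation lists, markers of cell types, dissociation stress genes and mitochondrial ribosomal proteins. The translation lists span up to 0.30, while the T cell list spans 1.54 with sample 1 at 0.79.

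Several lists of cell type markers spanned more between the same samples, 1.54 for T cells against 0.21 for ribosomal proteins. All 10 T cell markers measured were detected on all arrays, and each peaked in sample 1 and was lowest in sample 2, the order most common among bright ribosomal protein genes, with median deviations of 0.79, -0.76 and -0.0014. Their summed log2 levels were 80.0, 63.5 and 71.7, and Cd3e was at 8.59, 6.49 and 8.04. All 9 B cell markers measured, 7 of them detected on every array, were highest in sample 1, with summed log2 levels of 76.3, 61.8 and 63.6 and with Ms4a1 at 9.05, 6.34 and 6.45. Fibroblast markers were highest in sample 2 in 11 of 12 genes and lowest in sample 3 in all 12, and neutrophil markers highest in sample 3 in 11 of 12 and lowest in sample 1 in 9. Sample 2 was also the top sample for 9 of 10 pericyte and 6 of 11 macrophage markers, and sample 3 for 8 of 10 endothelial and 7 of 10 myogenic markers. Of all detected genes 28.8% were highest in sample 1, 32.5% in sample 2 and 32.8% in sample 3. The shares lowest in samples 1 to 3 were 31.2%, 29.4% and 33.3%. No T cell or B cell marker was below the background reference on all arrays. The part of these cells in the ribosomal protein values was not tested, and in such bulk samples fewer cells of a type and less RNA per cell cannot be told apart. The median of 10 dissociation stress genes spanned 0.12, over genes that went both ways. The heat shock genes Hspa1a (11.19, 10.43 and 10.76) and Hspa1b (11.51, 10.73 and 10.81) had the order most common among bright ribosomal protein genes, while 6 of the 10 were lowest in sample 1, among them Fos (10.07, 10.18 and 10.26). Their part in the ribosomal protein values was not tested either.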

How the data were processed

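For each of 31873 probe sets the authors deposited a log2 intensity in each of 3 samples. Partek is named in the submitters' processing notes. The sources used here do not give its version or role, the background correction or the normalization, and the log2 scale was read from the values. GEO's platform annotation gave 1 symbol for 23094 probe sets, which alone were used, and all 66 ribosomal protein genes matched the RefSeq table of GRCm38.p6. Genes detected on at least 1 array entered ranges, SDs and deviations, and a tied value counted as neither highest nor lowest. With 1 group there was no test. The number of arrays limits precision.

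The members, the 19 gene lists and the alternatives were chosen with earlier results of these data known. Genes were named by a rule: the 10 members of largest range, the 5 of smallest range without ties, all paralogs and counterparts, a set of well known members, all undetected members, and leading genes of the other lists. Further members named, and the placing of Rpl6l and Rpl32l among the paralogs, were chosen after their values were seen. Python 3.11.15, numpy 2.4.6, pandas 2.3.3 and matplotlib 3.10.9 were used, and the computation was tested on simulated data.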

Additional observations from a re-analysis of the deposited data

How the results depend on the processing

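No paired analysis was possible because all samples belong to 1 group. Sample 1 stayed above and sample 2 below the gene means in the median under every alternative run that kept the sample. When other samples were left out the values were 0.0505 to 0.0934 for sample 1 and -0.0934 to -0.0407 for sample 2. With 2 samples left, the deviations of a gene mirror each other, so values such as 0.0934 and -0.0934 are a single result. The median deviation of sample 3, 0.0025, was close to 0 and changed sign with arrays centred on their median (-0.0111), quantile normalization (-0.0045), the mean of a gene's probe sets (-0.0026), probe sets with several symbols included (-0.0056), the mean in place of the median (-0.0109) and, chosen after seeing the data, the dimmest probe set of each gene (-0.0106). Leaving out samples gave it values from -0.0505 to 0.0407. The number of genes with a range above 1 was 0, but 2 with probe sets of several symbols included (Rpl13a and Rpl5), 1 with the dimmest probe sets (Rpl29) and 8 at a threshold of 0.5. Keeping only probe sets above 9, also chosen after seeing the data, left 34 genes, all detected, of which 28 were highest in sample 1. Detected genes numbered 42 with the 99th percentile and 64 with the 90th. With 3 arrays and no detection calls, dim probe sets have little signal over background.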

Other observations

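A further 13 ribosomal protein genes were read only by probe sets that carry several symbols, mostly with pseudogenes, and were left out of the counts above. Of these 12 were detected on all 3 arrays, against 60.5% of named genes outside the receptors. Their top value was in sample 1 in 10 and their lowest in sample 2 in 8, against 28.8% and 29.4% of all detected genes. Rpl31 was at 12.38, 12.24 and 12.31 in samples 1 to 3, Rpl35a at 12.11, 11.83 and 11.98 and Rps21 at 12.03, 11.81 and 11.91, and Rps15a was near background at 5.09, 5.31 and 5.01. Rpl13a stood out with 9.67, 8.41 and 8.23, a range of 1.44, on a probe set it shares with 1 other symbol.

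A pair of probe sets that were not kept varied much more than the kept ones of the same gene. The dimmer probe set of Rpl29 was at 7.56, 7.12 and 5.95, a range of 1.62, where the kept one ranged over 0.085. A second probe set of Rpl3 was at 9.78, 9.02 and 10.03, a range of 1.01, where the kept one ranged over 0.14.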
